A study of Mus musculus with 8 samples.

Results

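The livers of Elf4-/- mice and WT mice that never received alcohol were compared. This comparison rests on 4 of the 8 sequenced livers, 2 of the Elf4-/--Control group and 2 of the WT-Control group, and on all 13993 of the 19267 genes in the table that had enough counts to be tested. All mice were C57BL/6 males of 9 weeks whose liver RNA was taken after 21 days on a Lieber-DeCarli liquid diet. The Control diet carried isocaloric maltose dextrin, and the EtOH diet of the other 4 livers (2 WT-EtOH and 2 Elf4-/--EtOH) carried 5% (w/v) alcohol in its place. Elf4-/- mice carried floxed Elf4, a gene of the X chromosome, and expressed Cre from the villin promoter, which is active in the intestinal epithelium. The WT mice were Cre mice as well. The deletion was therefore made in the gut and not in the liver that was sequenced. The question was whether the liver differs in gene expression when the gut has lost Elf4 and no alcohol is given.

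ELF4 is a transcription factor of the ETS family. Blood from the intestine passes through the portal vein to the liver, where hepatocytes, Kupffer cells (the resident macrophages), sinusoidal endothelium and stellate cells meet what the gut has let through. Hepatocytes turn dietary sugar into fatty acids under the transcription factors SREBP-1 and ChREBP. They also secrete the acute phase proteins when cytokines such as interleukin 6 reach them, a secretion that loads the folding machinery of the endoplasmic reticulum.

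The 4 Control libraries held between 6171051 and 9157362 counts. They had the profile of liver: albumin (Alb) stood between 31650 and 42750 CPM (a count relative to its library total, scaled by TMM, as everywhere below), and the summed level of the 13 hepatocyte markers was 74630 and 103300 CPM in WT-Control against 86730 and 97730 CPM in Elf4-/--Control. Elf4 itself was barely detected, its counts being 6 and 11 for the WT-Control livers against 12 and 6 for Elf4-/--Control, and a log2 fold change of -0.54 with an SE of 0.61 (adjusted p = 0.91 in the edgeR quasi-likelihood test). Liver is outside the deleted tissue, so these counts check the genotype labels only weakly.

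Several features of the libraries moved with genotype. The mitochondrial genome supplied 33.7% and 23.4% of the counts in WT-Control but 18.7% and 18.5% in Elf4-/--Control. The 10 markers of sinusoidal endothelium summed to 177 and 94.9 CPM in WT-Control and to 237 and 267 CPM in Elf4-/--Control, and the 10 stellate cell markers to 156 and 74.9 CPM against 249 and 215 CPM. In both marker lists WT-Control replicate 2 had the lowest level of the 4 livers, and no marker was at 0 in any of them. In bulk tissue, fewer or more cells of a type and less or more RNA per cell cannot be told apart. The part these differences play in the gene differences below was not tested.

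**Figure D1:**
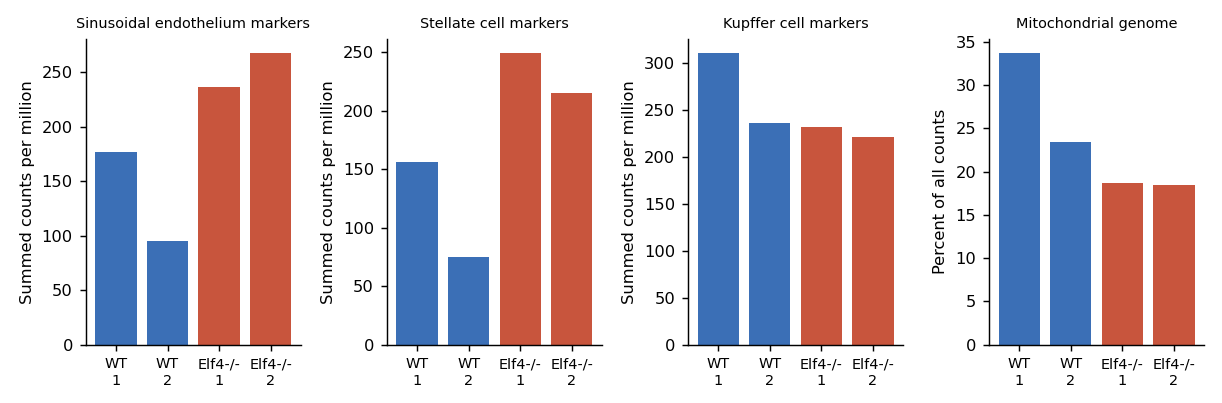
Summed CPM of the 10 sinusoidal endothelium, 10 stellate cell and 12 Kupffer cell markers, and the percent of all counts from the mitochondrial genome, with 1 bar per Control-diet liver (blue WT-Control, red Elf4-/--Control). Both Elf4-/--Control livers stand above both WT-Control livers for endothelial markers (237 and 267 against 177 and 94.9 CPM) and below them for the mitochondrial share (18.7% and 18.5% against 33.7% and 23.4%).

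Across all genes, 1 gene rose and 1 fell in Elf4-/--Control livers at an edgeR adjusted p under 0.05, each 0.00715% of the genes tested. The gene that rose was Thrsp (Spot14), which encodes a small nuclear protein of lipogenic tissues that promotes fatty acid synthesis. Its level was 99.9 and 103 CPM in the WT-Control livers and 518 and 550.4 CPM in the Elf4-/--Control livers. The groups lay far apart and the replicates close together, at 102 ± 2.45 and 534 ± 23.2 CPM (mean ± SD, n = 2), a 5.25-fold difference (log2 fold change 2.39 ± 0.26, SE; adjusted p = 0.026). The gene lies on chromosome 7 at 97412938-97417730, minus strand (GRCm38).

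The gene that fell was Gm42031, a lincRNA of unknown function on chromosome 8 at 85125872-85132289, minus strand. WT-Control livers gave it 199 and 97 counts, against 0 and 2 counts for Elf4-/--Control livers. Against a floor of 3 counts per library its mean level was at least 72.9-fold lower in Elf4-/--Control (adjusted p = 0.021), and at least 47.4-fold lower without WT-Control replicate 1. The EtOH livers, whose spread entered the same fit, had 5.06 and 5.30 CPM in WT-EtOH and 0.638 and 0.133 CPM in Elf4-/--EtOH.

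Thrsp kept its size without any 1 of the 4 Control livers (log2 fold change 2.35 to 2.44) but its adjusted p was then 0.17 without WT-Control replicate 1, 0.20 without WT-Control replicate 2, 0.18 without Elf4-/--Control replicate 1 and 0.23 without Elf4-/--Control replicate 2. Gm42031 stayed called without WT-Control replicate 2 (adjusted p = 0.038) and lost its call without WT-Control replicate 1 (0.11), Elf4-/--Control replicate 1 (0.18) or Elf4-/--Control replicate 2 (0.15). Over all alternatives the adjusted p ran from 3.5e-15 to 0.23 for Thrsp and from 4e-09 to 0.18 for Gm42031. The spread in this fit is shared with the EtOH livers, and the 2 Elf4-/--EtOH livers differed from each other more than any other pair (SD of the log2 difference 0.694, against 0.36 in Elf4-/--Control and 0.473 in WT-Control). Without Elf4-/--EtOH replicate 1 the same test called 52 genes, without Elf4-/--EtOH replicate 2 it called 53, and with only the 4 Control livers it called 22. DESeq2 called 79 genes, 45 higher (0.322%) and 34 lower (0.243%).

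The genes next in line had non-overlapping groups but did not pass the edgeR threshold. By unadjusted p, 612 genes (4.37%) were higher and 411 genes (2.94%) lower at p under 0.05. The 2 groups did not overlap for 2801 genes (20.0%) in the higher and 2584 genes (18.5%) in the lower direction. Of the 10 genes of each direction taken by smallest p, all 20 passed in DESeq2, and 8 of the higher and 3 of the lower passed with only the 4 Control livers.

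Among the 10 higher genes, Mfsd2a, the transporter of lysophosphatidylcholine carrying omega-3 fatty acids, had 27.8 and 25.4 CPM in WT-Control and 94.3 and 185 CPM in Elf4-/--Control (log2 fold change 2.39 ± 0.31, adjusted p = 0.082). Chrna4, a subunit of the nicotinic acetylcholine receptor, had 17.2 and 11.6 against 117 and 88.6 CPM (2.84 ± 0.38, adjusted p = 0.082). Cib3, a calcium and integrin binding protein, had 11.6 and 7.91 against 106 and 53.6 CPM (3.03 ± 0.42, adjusted p = 0.082). In all 3 genes the lower Elf4-/--Control liver was still at least 3 times the higher WT-Control liver.

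Usp2, a deubiquitinase with a daily rhythm, had 25.2 and 17.5 against 64.7 and 91.1 CPM (log2 fold change 1.87 ± 0.28, adjusted p = 0.095). Noct (nocturnin), a rhythmic phosphatase of NADP(H), had 25.9 and 50.4 against 117 and 150.4 CPM (1.81 ± 0.31, adjusted p = 0.16). Hamp2, a copy of the hepcidin gene, had 31.1 and 16.0 against 235 and 165 CPM (3.09 ± 0.48, adjusted p = 0.11). Hamp2 is nearly identical to Hamp and overlaps Gm44662 on the other strand, so its share of the reads is uncertain. Acacb, described with its pathway below, and Ccdc50 and Tmem254a, at 1.24 ± 0.19 and 1.38 ± 0.24 on the log2 scale, complete the list. Usp2, Noct, Acacb, Me1, Elovl3 and Ciart also overlap other annotated genes, whose reads cannot be told apart from theirs here.

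Among the lower genes, Elovl3, the elongase of saturated and monounsaturated very long chain fatty acids whose level in liver depends on sex and growth hormone, had 71.2 and 73.6 CPM in WT-Control and 19.3 and 28.6 CPM in Elf4-/--Control (log2 fold change -1.60 ± 0.24, adjusted p = 0.095). Fgl1, a secreted fibrinogen-like protein of hepatocytes, had 1824 and 1318 against 302 and 411 CPM (-2.14 ± 0.35, adjusted p = 0.14). Both genes kept the groups apart by more than the distance between replicates. Mrnip, a DNA repair factor that overlaps Sqstm1 on the opposite strand, had 23.7 and 19.9 against 7.07 and 7.76 CPM (-1.56 ± 0.26, adjusted p = 0.14).

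A2ml1 (a protease inhibitor) and Nav2 (neuron navigator 2) stood at log2 fold changes of -1.16 and -1.12. Eps8l2 and the non-coding B230206H07Rik, at log2 fold changes of -0.999 and -1.19, overlap each other on opposite strands and their reads cannot be told apart without strand. The list of lower genes also holds Sdf2l1 and mt-Co2, which are described with their groups.

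**Figure D2:**
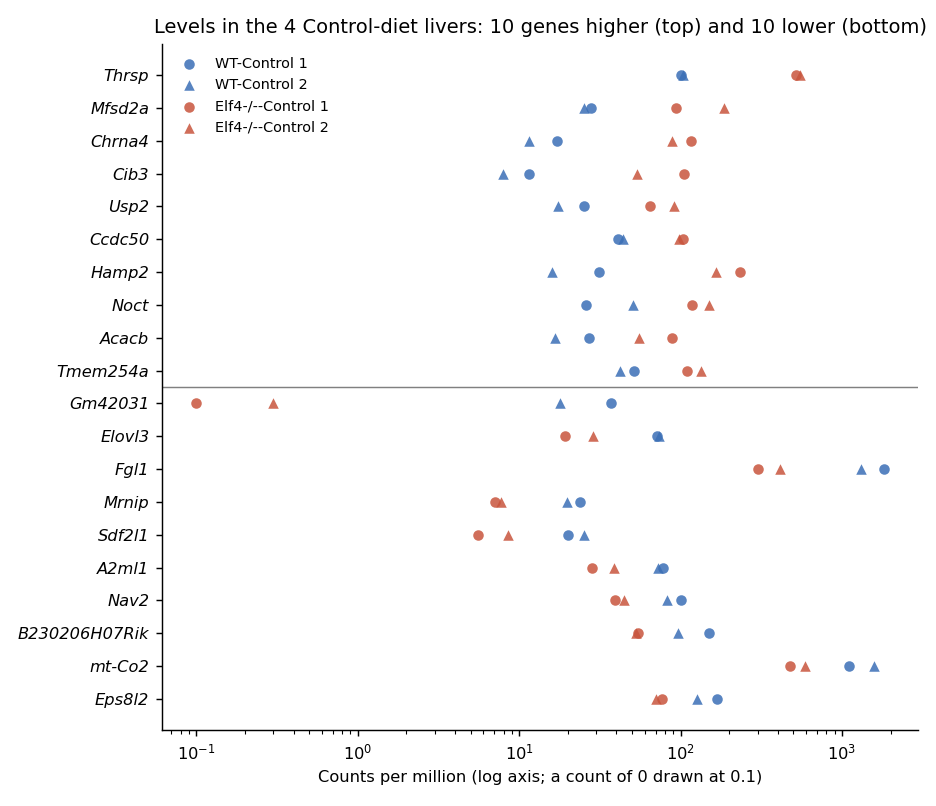
CPM on a log axis in each of the 4 Control-diet livers for the 10 genes higher (top) and the 10 genes lower (bottom) in Elf4-/--Control, taken by smallest p among genes with a mean of 50 counts or more and groups that do not overlap. Red symbols (Elf4-/--Control) and blue symbols (WT-Control) are apart in every row because the choice required it, and the distance is widest for Gm42031, with 0 and 2 counts against 199 and 97.

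Genes of fatty acid synthesis had the higher levels in Elf4-/--Control livers. Of the 17 members tested, 12 were higher and 0 lower at unadjusted p under 0.05, against 4.37% and 2.94% of all genes, 14 had groups that did not overlap in that direction, 16 had a positive log2 fold change against 51.4% of all genes, and the median was 1.11 against 0.012 for all genes. Thrsp was the 1 member that passed the adjusted threshold, and 5 passed in DESeq2. The count without any 1 Control liver ranged from 8 to 12 and the median from 0.83 to 1.30.

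Enzymes at several steps from acetyl-CoA to desaturated fatty acids had higher levels in Elf4-/--Control, none of them past the edgeR adjusted threshold. Acacb, the acetyl-CoA carboxylase at the mitochondrial membrane whose malonyl-CoA restrains fatty acid oxidation, had 27.0 and 16.7 CPM in WT-Control and 88.0 and 55.3 CPM in Elf4-/--Control (log2 fold change 1.71 ± 0.30, adjusted p = 0.16). Me1, the malic enzyme that supplies NADPH, had 43.8 and 35.0 against 105 and 104 CPM (1.40 ± 0.27, adjusted p = 0.18). Fads1, the delta-5 desaturase, had 80.0 and 119 against 285 and 219 CPM (1.34 ± 0.27, adjusted p = 0.21). Both Elf4-/--Control livers exceeded both WT-Control livers for each of the 3 genes.

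Other enzymes of the pathway, named after their values were seen, differed more between replicates. Fasn, the fatty acid synthase, had 162 and 222 CPM in WT-Control and 722 and 339 CPM in Elf4-/--Control, and Acly, which makes cytosolic acetyl-CoA from citrate, had 45.3 and 77.8 against 288 and 113 CPM. Elf4-/--Control replicate 1 was the highest liver for both. Scd1, the stearoyl-CoA desaturase, had 1487 and 2595 against 3446 and 3798 CPM, and Elovl6, the elongase of palmitate, had 163 and 161 against 366 and 335 CPM. The transcripts of the 2 transcription factors did not stand apart: Srebf1 had 263 and 326 against 364 and 286 CPM and Mlxipl (ChREBP) 980.2 and 1123 against 1006 and 993 CPM, with groups that overlapped. Pnpla3, a lipase known as a target of these factors, was under the filter with 4 and 0 counts against 50 and 10.

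**Figure D3:**
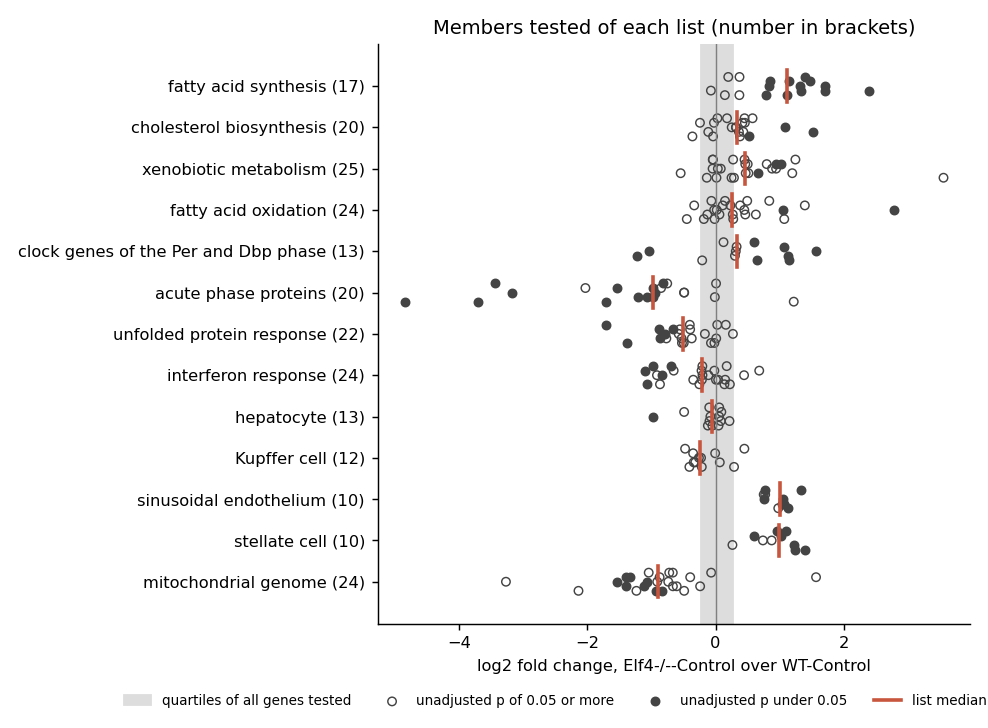
Log2 fold change (Elf4-/--Control over WT-Control) of every member tested of 13 gene lists, with filled points for an unadjusted p under 0.05, a red line at the list median and grey shading between the quartiles of all genes tested. Medians are 1.11 for fatty acid synthesis, 1.01 and 0.99 for sinusoidal endothelium and stellate cells, -0.97 for acute phase proteins and -0.51 for the unfolded protein response, while the shading spans -0.23 to 0.27.

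Neighbouring lipid pathways showed less, beside 4.37% of all genes higher and 2.94% lower at unadjusted p under 0.05. Triglyceride assembly and storage had 0 of 21 members at unadjusted p under 0.05 in either direction (median 0.30). Cholesterol biosynthesis had 3 of 20 higher and 0 lower (median 0.34), among them Pmvk, phosphomevalonate kinase, at 3.92 and 6.26 against 17.8 and 11.2 CPM. Cholesterol uptake and regulation had 0 of 17 in either direction (median -0.0036). Fatty acid oxidation had 2 of 24 higher (median 0.25): Acot1, a cytosolic thioesterase and PPARα target, at 1.12 and 0.736 against 4.715 and 8.503 CPM, and Cyp4a10, a fatty acid omega-hydroxylase, at 52.0 and 40.8 against 106 and 86.7 CPM. Of glucose and fructose metabolism 2 of 18 were higher (median 0.25), Pklr (liver pyruvate kinase) at 123 and 215 against 325 and 267 CPM and Khk (ketohexokinase) at 188 and 269 against 302 and 390 CPM. None of the genes in these 5 lists passed the adjusted threshold in edgeR, and 1 of cholesterol biosynthesis and 1 of fatty acid oxidation passed in DESeq2.

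Acute phase protein genes had the lower levels in Elf4-/--Control livers. Of 20 members tested 12 were lower and 0 higher at unadjusted p under 0.05 (2.94% and 4.37% of all genes), 16 had groups that did not overlap in the lower direction (18.5% of all genes), and the median log2 fold change was -0.97. No member passed the edgeR adjusted threshold and 4 passed in DESeq2. The count fell to 6 without WT-Control replicate 2 (median -0.71) and to 5 without Elf4-/--Control replicate 1 (median -0.87), and was 13 without WT-Control replicate 1.

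Itih3, the heavy chain of an inter-alpha-trypsin inhibitor, had 1949 and 1849 CPM in WT-Control and 558 and 749 CPM in Elf4-/--Control (log2 fold change -1.54 ± 0.32, adjusted p = 0.22). Apcs (serum amyloid P) had 115 and 159.9 against 36.7 and 47.6 CPM (-1.71 ± 0.39, adjusted p = 0.29). The WT-Control livers were close for Itih3 and further apart for Apcs, and in both genes they stood above the Elf4-/--Control livers. Haptoglobin (Hp), named after its values were seen, also had both WT-Control livers above, at 6351 and 7387 against 2293 and 3613 CPM.

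The serum amyloid and orosomucoid genes ranged widely, from log2 fold changes of -4.85 for Saa2 to -0.49 for Saa4, whose groups overlapped. Saa2 had 86.0 and 635 CPM in WT-Control and 12.1 and 12.8 CPM in Elf4-/--Control (log2 fold change -4.85 ± 1.10, adjusted p = 0.28), and Orm2 had 56.1 and 139.8 against 7.79 and 14.2 CPM (-3.17 ± 0.76, adjusted p = 0.32). Saa1, at 117 and 537 against 19.4 and 41.5 CPM, and Lcn2 (lipocalin 2), at 28.5 and 62.9 against 3.38 and 3.58 CPM, were likewise highest in WT-Control replicate 2. Saa1 and Saa2, and Orm1, Orm2 and Orm3, are near-identical copies whose reads the counting may have divided between them.

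Not all members of the list followed. Crp had 92.1 and 130 CPM in WT-Control and 96.0 and 124 CPM in Elf4-/--Control, and Steap4 had 31.3 and 36.2 against 25.4 and 42.8 CPM. Hamp (hepcidin), an iron hormone that interleukin 6 also induces, had 636 and 68.3 against 685 and 955 CPM, with WT-Control replicate 2 as the single low liver. These 3 genes were named after their values were seen.

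**Figure D4:**
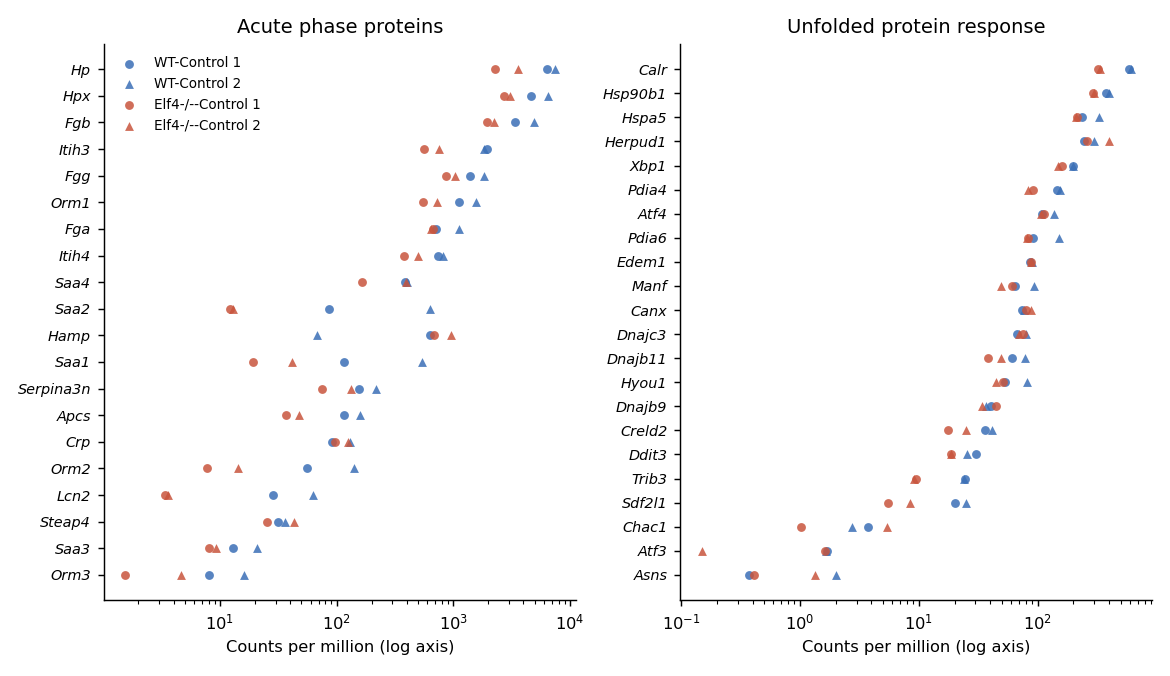
CPM on log axes in each Control-diet liver for the 20 acute phase protein genes (left) and the 22 unfolded protein response genes (right), ordered by mean WT-Control level. On the left the Elf4-/--Control livers lie below the WT-Control livers for 16 of 20 genes, widest for Saa2 (12.1 and 12.8 against 86.0 and 635 CPM), and on the right for 14 of 22 genes.

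The unfolded protein response, the set of chaperones and folding enzymes that the endoplasmic reticulum calls up under load, lay lower too. Of 22 members 6 were lower (2.94% of all genes) and 0 higher at unadjusted p under 0.05, 14 had groups that did not overlap in the lower direction (18.5% of all genes), and the median was -0.51. None passed the edgeR adjusted threshold and 2 passed in DESeq2. The count was 4 without WT-Control replicate 2 and 4 to 7 over all 4 omissions, with medians from -0.69 to -0.25.

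Sdf2l1, a cofactor of the BiP chaperone cycle, had 20.1 and 25.2 CPM in WT-Control and 5.535 and 8.503 CPM in Elf4-/--Control (log2 fold change -1.70 ± 0.29, adjusted p = 0.16). Trib3, a pseudokinase induced by ATF4 and CHOP, had 24.6 and 23.9 against 9.43 and 9.10 CPM (-1.39 ± 0.35, adjusted p = 0.35). Calr (calreticulin), a lectin chaperone, had 592 and 609.6 against 320.3 and 335 CPM (-0.88 ± 0.23, adjusted p = 0.35). Pdia4, a disulfide isomerase, had 145 and 155 against 90.8 and 83.1 CPM (-0.79 ± 0.21, adjusted p = 0.36). The replicates of these genes were close, so the differences came from both livers of each group.

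Many of these genes are known to be read through the endoplasmic reticulum stress element (ERSE), whose letters are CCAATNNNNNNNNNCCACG. It was searched on both strands in the 250 bases before the RefSeq start of each gene (GRCm38.p6). It occurred in 7 of the 20 promoters of this list that could be matched (35.0%) and in 19 of the 10294 promoters of all genes tested (0.185%). Its last bases can overlap the first letters of an E-box, CACGTG. The matches are shown with 5 bases on each side, read on the strand that carries the element, with its fixed letters in capitals. The Hspa5 match lies in an annotated exon and the others do not:
Hspa5 (chr2:34772020-34772048, plus strand): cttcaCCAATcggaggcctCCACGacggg
Hsp90b1 (chr10:86705633-86705661, minus strand): caagcCCAATcgcaaggagCCACGcttcg
Hsp90b1 (chr10:86705528-86705556, plus strand): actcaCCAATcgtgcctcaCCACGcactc
Pdia6 (chr12:17266486-17266514, plus strand): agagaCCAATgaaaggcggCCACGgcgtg
Calr (chr8:84847070-84847098, plus strand): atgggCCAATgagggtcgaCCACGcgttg
Canx (chr11:50325795-50325823, minus strand): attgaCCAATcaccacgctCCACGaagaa
Dnajc3 (chr14:118937822-118937850, plus strand): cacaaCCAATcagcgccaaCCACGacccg
Creld2 (chr15:88819515-88819543, minus strand): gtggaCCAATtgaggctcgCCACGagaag

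The 7 genes did not move as one. Calr and Creld2, at 35.8 and 41.6 against 17.5 and 25.1 CPM, were among the 6 lower members. Pdia6 had 90.6 and 151 against 82.6 and 81.1 CPM, Hsp90b1 377 and 397 against 292 and 296 CPM, and Hspa5 (BiP) 234 and 329.9 against 216 and 211 CPM, each with non-overlapping groups in the lower direction. Canx had 73.8 and 76.9 against 79.7 and 88.8 CPM, higher in both Elf4-/--Control livers, and Dnajc3, at 67.5 and 79.7 against 75.3 and 70.0 CPM, overlapped. The whole promoter of Calr, the most abundant of them, is given on the gene's minus strand, 5′ to 3′, where the element reads in reverse:
Calr (chr8:84846932-84847181, minus strand): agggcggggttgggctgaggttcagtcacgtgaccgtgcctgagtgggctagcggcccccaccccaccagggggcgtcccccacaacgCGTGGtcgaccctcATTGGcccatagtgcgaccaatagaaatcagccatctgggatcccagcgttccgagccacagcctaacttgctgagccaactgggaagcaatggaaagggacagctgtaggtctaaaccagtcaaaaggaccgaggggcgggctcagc

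Motifs of acute phase transcription factors were rare in windows of this length. A STAT motif (TTCCNGGAA, both strands) lay in 2 of 18 acute phase promoters (11.1%, Fga and Steap4) and in 1.01% of all promoters, and a C/EBP motif (TTGCGCAA) in 1 of 18 (5.56%, Orm2) and in 0.272% of all.

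Interferon-response genes had 5 of 24 members lower and 0 higher at unadjusted p under 0.05, and 10 lower without overlap, against 2.94% and 18.5% of all genes. The median of -0.21 changed sign to 0.038 when libraries were scaled by their totals alone. Mx2 had 29.1 and 24.5 CPM in WT-Control and 12.1 and 13.6 CPM in Elf4-/--Control (log2 fold change -1.06 ± 0.24, adjusted p = 0.28), Ifit1 had 36.7 and 34.8 against 19.0 and 21.0 CPM (-0.84 ± 0.20, adjusted p = 0.30) and Isg15 had 20.3 and 28.2 against 11.99 and 10.6 CPM (-1.10 ± 0.27, adjusted p = 0.34). Both Elf4-/--Control livers lay below both WT-Control livers for each. Mx2 is annotated as a polymorphic pseudogene. Antigen presentation had 0 of 15 members at unadjusted p under 0.05 (median -0.12).

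Endotoxin sensing, the pathway by which the liver reads gut bacteria, had a median of -0.32. Of its 15 members 1 was lower and 0 higher at unadjusted p under 0.05 (2.94% and 4.37% of all genes). That member was Ticam1, the TRIF adaptor, at 14.0 and 12.9 against 9.43 and 7.01 CPM. Lbp, the carrier of lipopolysaccharide and itself an acute phase protein, had 91.7 and 82.1 against 30.2 and 46.8 CPM (adjusted p = 0.75), and its receptor Cd14 had 2.24 and 1.66 against 0.820 and 0.448 CPM (adjusted p = 0.70). Cytokines and chemokines had 1 of 18 higher and 3 lower (median -0.15), with the same all-gene shares beside them. The lower ones were Socs3, Cxcl1 and Cxcl13. Socs3, the feedback inhibitor of interleukin 6 signalling, had 52.6 and 35.3 against 16.9 and 23.9 CPM, and Cxcl1 had 107 and 57.4 against 30.9 and 41.8 CPM. Cxcl13, at 1.68 and 0.920 against 0.103 and 0.298 CPM, was near the limit of detection, with 9 and 5 counts against 1 and 2. Cxcl16 was the higher one, at 3.17 and 2.02 against 6.05 and 5.52 CPM. None of these genes passed the adjusted threshold, and a single member of a list is not a result about the list.

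The genes that the study measured by qPCR or ELISA were mostly near the limit of detection in these libraries. For Tnf the counts were 2 and 1 against 1 and 1, Il6 had 0 counts in all 4 livers and Il10 at most 3. Il1b (6 and 8 against 17 and 4 counts), Ccl2 (5 and 2 against 9 and 0) and Acta2 (21 and 4 against 13 and 3) overlapped between groups. At this depth a difference in these 6 genes was not detectable. By ELISA the study measured TNFa, IL6 and IL10 as protein, not RNA. It measured Tjp1 and Ocln RNA in colon, where Elf4 was deleted, whereas the values below are from liver. The tight junction genes were well covered: Tjp1 had 38.8 and 28.5 against 42.9 and 37.9 CPM (log2 fold change 0.27 ± 0.20, adjusted p = 0.85) and Ocln 20.0 and 18.8 against 22.4 and 11.3 CPM (-0.18 ± 0.31, adjusted p = 0.95), with overlapping groups. Of the 15 tight junction genes tested 2 were lower and 0 higher at unadjusted p under 0.05 (2.94% and 4.37% of all genes). The lower ones were Cldn14 and Cldn1 (log2 fold changes -0.82 and -0.81), and the list median was -0.18.

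Clock genes of the Per and Dbp phase, whose transcripts rise and fall each day, had a median of 0.33. Of 13 members 6 were higher and 2 lower at unadjusted p under 0.05 (4.37% and 2.94% of all genes). Without 1 Control liver the higher count was 1 to 3: 2 without WT-Control replicate 1, 1 without WT-Control replicate 2, 3 without Elf4-/--Control replicate 1 and 2 without Elf4-/--Control replicate 2. Ciart, a repressor of CLOCK and BMAL1, had 38.6 and 20.6 CPM in WT-Control and 74.1 and 102 CPM in Elf4-/--Control (log2 fold change 1.57 ± 0.50, adjusted p = 0.49). Cry1 had 6.90 and 4.05 against 10.45 and 12.5 CPM (1.06 ± 0.35, adjusted p = 0.52).

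In the other direction, Nr1d1 (REV-ERBα), which overlaps Thra on the opposite strand, had 197 and 229.8 against 131 and 77.0 CPM (-1.03 ± 0.35, adjusted p = 0.54), and Bhlhe41 had 13.98 and 11.04 against 6.25 and 4.33 CPM (-1.23 ± 0.43, adjusted p = 0.56). Among the others, named after their values were seen, Per2 had 107 and 99.7 against 234 and 221 CPM and Per3 had 52.6 and 60.9 against 127 and 122 CPM, while Dbp, at 361 and 373 against 340.3 and 295 CPM, lay lower in both Elf4-/--Control livers. The median of the 4 Bmal1-phase genes tested was -0.50. The time of day at which each liver was taken is not given in the sources used here.

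CLOCK and BMAL1 bind the E-box CACGTG. It was present in 5 of 11 promoters of the Per and Dbp phase list (45.5%) and in 870 of the 10294 promoters of all genes tested (8.45%). Ciart held 3 copies, shown in capitals in its promoter because it had the smallest p of the list:
Ciart (chr3:95882229-95882478, minus strand): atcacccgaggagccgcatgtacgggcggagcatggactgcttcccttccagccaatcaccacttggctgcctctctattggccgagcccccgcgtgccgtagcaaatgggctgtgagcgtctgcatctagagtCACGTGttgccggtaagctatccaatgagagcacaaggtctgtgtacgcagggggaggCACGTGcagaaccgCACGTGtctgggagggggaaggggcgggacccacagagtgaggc
The other matches were in Per1, Cry1, Tef and Bhlhe41, 1 copy each, and the Tef match lies in an annotated exon. Cry1 lay higher and Bhlhe41 lower, so carriers of the motif were found in both directions.

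Other metabolic lists had few members past the unadjusted threshold, which 4.37% of all genes passed as higher and 2.94% as lower. Xenobiotic metabolism had 3 of 25 higher and 0 lower, with a median of 0.46 with or without Cyp2b10, which had 0 counts in both WT-Control livers. Cyp3a11, the main PXR target, had 259 and 466 CPM in WT-Control and 719 and 674 CPM in Elf4-/--Control (log2 fold change 0.94 ± 0.31, adjusted p = 0.52), Sult1a1 had 248 and 162 against 378 and 456 CPM and Nr1i3, the CAR receptor, had 585 and 447 against 669 and 962 CPM. Bile acid synthesis and transport had 2 of 19 higher and 2 lower (median 0.00092). The higher ones were Cyp7a1, the rate-limiting enzyme, at 3.54 and 28.0 against 33.9 and 72.9 CPM, and the exporter subunit Slc51a, at 11.2 and 13.1 against 18.4 and 17.5 CPM. The lower ones were Abcb11, the canalicular bile salt export pump, at 833 and 708 against 402 and 464 CPM, and Nr0b2 (SHP), the repressor of Cyp7a1, at 111 and 84.3 against 49.6 and 72.2 CPM.

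The growth hormone axis had 1 of 19 higher and 3 lower (median -0.019), the higher one being Igfbp3 and the lower ones Elovl3, Socs2, at 20.9 and 30.7 against 11.2 and 11.5 CPM, and Stat5b, at 64.7 and 66.4 against 38.8 and 48.8 CPM. Ethanol metabolism had 2 of 9 higher, Acss2 and Adh1, and 1 lower, Adh4 (median 0.12), in livers that had met no dietary alcohol. Heat shock genes had 1 of 15 higher (Hsph1, median 0.31) and immediate early genes 1 of 16 higher (Myc, at 1.49 and 1.47 against 4.92 and 6.27 CPM) and 2 lower (Junb and Ier2, median -0.0067). Nuclear genes of the respiratory chain had 3 of 22 higher and 0 lower (median 0.18), but 0 higher without WT-Control replicate 1 or without Elf4-/--Control replicate 2 and 10 higher without WT-Control replicate 2. Fibrosis and extracellular matrix had 1 of 16 higher (median 0.40), Loxl1, with 2 and 0 counts in WT-Control against 13 and 6. The list median was 0.079 without WT-Control replicate 2 and -0.12 without Elf4-/--Control replicate 1. Counts of 1 in these lists stand beside 4.37% of all genes higher and 2.94% lower, and are not results about the lists. The lists of fasting and insulin response (18 genes, median 0.010), amino acid and urea cycle metabolism (20, 0.20), oxidative stress and glutathione (17, 0.083) and cell cycle (20, -0.083) had 0 members at unadjusted p under 0.05.

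The mitochondrial genome, by contrast, had 8 of 24 genes lower and 0 higher at unadjusted p under 0.05 (2.94% and 4.37% of all genes). The list median was -0.89. mt-Co2, subunit 2 of cytochrome oxidase, had 1111 and 1571 CPM in WT-Control and 475 and 591 CPM in Elf4-/--Control (log2 fold change -1.33 ± 0.27, adjusted p = 0.21). mt-Nd5 had 29750 and 19470 against 12160 and 10460 CPM, and with most of these transcripts WT-Control replicate 1 was the highest liver. Without that liver 2 genes were lower and 2 higher (median -0.43), and without WT-Control replicate 2, 20 were lower (median -1.20).

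Sinusoidal endothelium and stellate cell markers had the higher levels in Elf4-/--Control, with medians of 1.01 and 0.99. In each list 7 of 10 were higher and 0 lower at unadjusted p under 0.05 (4.37% and 2.94% of all genes). Kdr, the VEGF receptor of endothelium, had 9.51 and 4.78 CPM in WT-Control and 16.9 and 19.4 CPM in Elf4-/--Control (log2 fold change 1.34 ± 0.31, adjusted p = 0.30), and Fcgr2b, the scavenging Fc receptor of sinusoids, had 26.1 and 8.65 against 34.3 and 37.9 CPM (1.05 ± 0.38, adjusted p = 0.59). Of the stellate markers Colec11, a collectin, had 8.76 and 5.34 against 16.3 and 16.9 CPM (1.23 ± 0.31, adjusted p = 0.35) and Lrat, which esterifies retinol for storage, had 4.10 and 1.29 against 8.20 and 5.82 CPM (1.39 ± 0.48, adjusted p = 0.56). WT-Control replicate 2 was the lowest liver for all 4. Without it 1 endothelial and 3 stellate markers had an unadjusted p under 0.05 and the medians were 0.52 and 0.58. Without WT-Control replicate 1 the counts were 8 and 7, with medians of 1.84 for both lists. Without Elf4-/--Control replicate 2 the counts were 2 and 5, and without Elf4-/--Control replicate 1 they were 6 and 1.

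Kupffer cell markers had 0 of 12 members at unadjusted p under 0.05 (median -0.24), with 310.4 and 236 CPM summed in WT-Control and 232 and 222 CPM in Elf4-/--Control, and Clec4f, their defining lectin, had 128 and 103 against 89.4 and 93.2 CPM. Hepatocyte markers had a median of -0.050, and the 1 lower member was Fgb, a fibrinogen chain that is also on the acute phase list. Markers of monocytes (6 tested), neutrophils (4), T and NK cells (7), B and plasma cells (5), bile duct (6), red blood cells (5), adipose tissue (2), pancreatic acini (1) and intestinal epithelium (3) had 0 members at unadjusted p under 0.05. The T and NK cell markers summed to at most 9.74 CPM and the neutrophil markers to at most 9.70 CPM in any Control liver. Of the intestinal list, Fabp2, also made by liver, had 49.97 and 51.2 against 93.3 and 85.6 CPM (adjusted p = 0.75), Vil1 0.559 and 1.66 against 1.95 and 1.94 CPM, and Lgals4, with overlapping groups, 153 and 112 against 125 and 159 CPM. The pancreatic marker Cela1 had 5.22 and 3.86 against 7.17 and 9.10 CPM. Fabp2, Vil1 and Cela1 were thus higher without overlap in Elf4-/--Control, as were 20.0% of all genes, and none had an unadjusted p under 0.05.

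The same genotype contrast was available in mice given alcohol, in different livers. There edgeR called 17 genes higher (0.121%) and 3 lower (0.0214%) in Elf4-/--EtOH. Thrsp rose there as well, with 26.8 and 42.6 CPM in WT-EtOH and 382 and 444 CPM in Elf4-/--EtOH (log2 fold change 3.57 ± 0.28, adjusted p = 0.0017). Chrna4 rose from 0.506 and 1.43 CPM to 77.3 and 38.3 CPM (5.82 ± 0.49, adjusted p = 0.0017), Noct rose from 24.9 and 30.5 to 106 and 135 CPM (2.12 ± 0.31, adjusted p = 0.041) and Tmem254a from 46.4 and 47.6 to 190.0 and 126 CPM (1.75 ± 0.24, adjusted p = 0.034). These 4 genes were thus higher in all 4 Elf4-/- livers than in the WT livers of the same diet.

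Others did not carry over. Usp2 had 36.2 and 53.7 CPM in WT-EtOH and 41.4 and 46.0 CPM in Elf4-/--EtOH, Hamp2 69.7 and 53.8 against 41.4 and 117 CPM, and Elovl3 15.9 and 11.3 against 14.8 and 15.1 CPM, with overlapping groups in each. mt-Co2 had 355 and 329.8 against 873 and 719.9 CPM, higher in both Elf4-/--EtOH livers where it had been lower under Control. As lists, fatty acid synthesis had a median log2 fold change of 0.84 under EtOH, acute phase proteins -0.074, the unfolded protein response -0.23 and sinusoidal endothelium -0.75. A test of the difference between the 2 genotype effects called 0 genes in edgeR, with 1411 (10.1%) at unadjusted p under 0.05, and 111 (0.793%) in DESeq2. By edgeR no gene named here was therefore shown to respond differently to genotype under the 2 diets; the smallest adjusted p among the genes named by rule was 0.11, for Isg15.

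**Figure D5:**
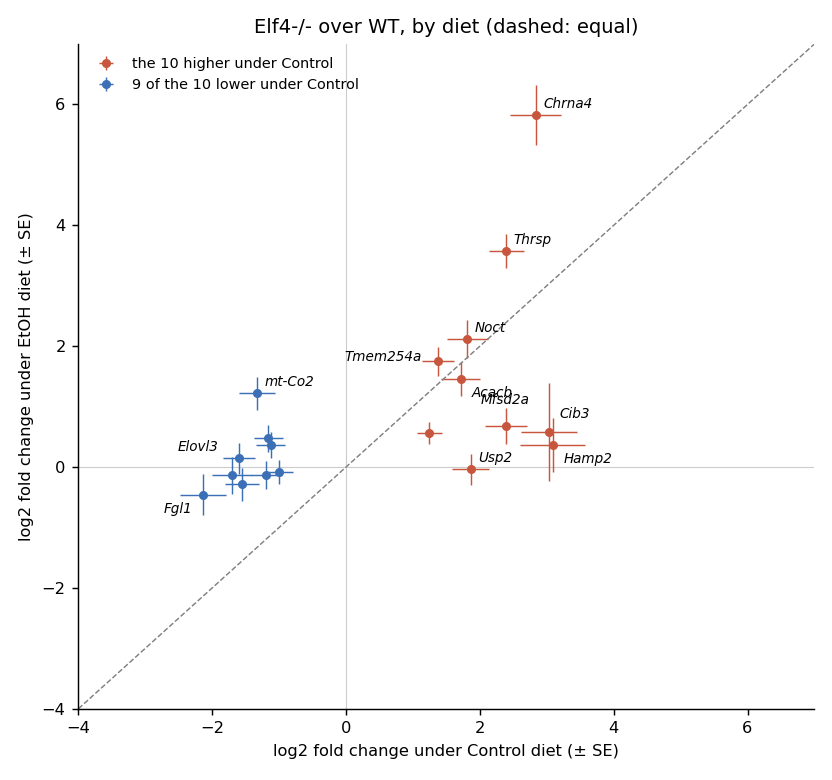
Log2 fold change of Elf4-/- over WT (± SE) under Control diet (x axis) and EtOH diet (y axis) for the 10 higher genes (red) and 9 of the 10 lower genes (blue), without Gm42031, whose Elf4-/--Control counts were 0 and 2. Noct (1.81 and 2.12) and Acacb (1.71 and 1.46) lie near the dashed line of equal size, Thrsp (2.39 and 3.57) lies above it, and Hamp2 (3.09 and 0.36) and Usp2 (1.87 and -0.040) lie near 0 on the EtOH axis. The genes were chosen on the x axis.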

How the data were processed

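RNA of 8 livers, total RNA per the labels and mRNA in the words of the methods, was sequenced (paired-end Illumina), and the authors aligned reads to mm10 with HISAT2, processed them with SAMtools and deposited HTSeq read counts per gene; versions, annotation and strand setting are not given in the sources used here. The deposited table held 19267 named genes and 968 blank rows, which carried no values and were dropped. Genes were matched by symbol to GENCODE (18774, 97.4%). Counts of 8 libraries were fitted in 4 groups of 2 with edgeR 4.0.16 (quasi-likelihood test, filterByExpr, TMM, R 4.3.3); the genes kept held 99.76% or more of every library. Adjusted p is Benjamini-Hochberg over all 13993 genes, with a threshold of 0.05. The common biological coefficient of variation was 22.7% with 4 residual degrees of freedom. Named genes were Elf4, genes past the threshold, 10 per direction by smallest p (mean of 50 counts or more, no overlap), genes of the study's qPCR and ELISA, and up to 4 per list; further ones were named after their values were seen, and a few that the rule names are not reported here. Members and lists were chosen with earlier results of these data known, so no test was run over a list. Promoter sequences are from RefSeq, GRCm38.p6, for 10294 genes. Alternatives included DESeq2 1.42.0, scaling, filters, single-library omission and a replicate block. Nothing states whether each library is a separate mouse, so p-values measure the spread between these samples.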

Additional observations from a re-analysis of the deposited data

How the results depend on the processing

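The number of genes called under Control diet (2) was 2 with DESeq2 size factors, with TMM without mitochondrial genes and with the replicate block, 5 with library totals, 14 without a filter, 0 with a mean of at least 50 counts, 22 with only the 4 Control libraries and 79 in DESeq2. Leaving out single libraries gave 0 to 53. The 0 genes called for the difference between diets became 111 in DESeq2 and 0 to 139 when single libraries were left out. Where an omission left a group with 1 library, that library was assumed to vary like the other groups.

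Library totals alone moved the median of all genes by 0.23 on the log2 scale, and the unadjusted split of 612 higher and 411 lower (59.8% higher) became 1449 and 130 (91.8%). Under that scaling the medians of the interferon (0.038), Kupffer cell (0.00020), hepatocyte (0.16), antigen presentation (0.11), tight junction (0.072), cytokine (0.10) and growth hormone (0.20) lists changed sign from negative to positive, while those of acute phase proteins (-0.75), the unfolded protein response (-0.28) and the mitochondrial genome (-0.66) stayed negative.

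Named genes that changed sign were Il1b (0.16) and Ocln (0.072) under library totals, and, with single libraries left out, Il1b (-1.09 to 0.43), Ccl2 (-5.22 to 0.50), Acta2 (-2.32 to 0.34) and Ocln (-0.76 to 0.22). None of them was called, and the cause was not tested. Whether replicate numbers pair the samples cannot be decided, because 2 livers per group give a single deviation per gene. Across genes, deviations of equally numbered WT-Control and Elf4-/--Control livers correlated at 0.114, and between other group pairs at -0.134 to 0.0384. The replicate block kept Thrsp and Gm42031 called (adjusted p = 0.040 for each). At 6171051 to 9157362 counts per library, cytokine transcripts at a few counts cannot be compared.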

Other observations

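Across the 8 livers, some lists set the EtOH and Control genotype contrasts apart in value, although no gene passed the test of the difference in edgeR. Cholesterol biosynthesis had a median log2 fold change of 0.34 under Control and 1.77 under EtOH, and 16 of its 20 members had an unadjusted p under 0.05 for the difference, against 10.1% of all genes. Kupffer cell markers had medians of -0.24 and -1.36, with 9 of 12 members, and sinusoidal endothelium 1.01 and -0.75, with 8 of 10. The mitochondrial genome had medians of -0.89 and 1.07, with 18 of 24. Amino acid and urea cycle genes had medians of 0.20 and 1.09, with 8 of 20. The share of counts from the mitochondrial genome was 12.5% and 10.8% in WT-EtOH and 22.1% and 18.3% in Elf4-/--EtOH, so the order of the genotypes was opposite to that under Control.

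Mt2, a metallothionein, had 34.3 and 14.9 against 2.25 and 8.65 CPM (-2.22 ± 1.67, adjusted p = 0.84). The Control groups did not overlap, as in 18.5% of all genes in the lower direction. The SE comes from the fit shared with the EtOH livers, where the 2 Elf4-/--EtOH livers had 701.5 and 1.46 CPM. Egr1 had 34.3 and 21.5 against 4.92 and 13.6 CPM (adjusted p = 0.75).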
